A study of Sinonovacula constricta with 9 samples.

Results

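The razor clam Sinonovacula constricta is a burrowing bivalve of estuarine mudflats, cultured in brackish water. In whole juveniles at day 15 after fertilization, 77 of 246672 assembled transcripts (unigenes) were lower at both high and low salinity than at the control salinity. Animals had spent 6 h at 25 psu (high salinity), 5 psu (low salinity) or 15 psu (the control, labelled optimal), with 3 RNA sequencing libraries in each group and 9 in all. No other treatment, strain or genotype is labelled, and the same age, stage and whole-body material were used in every group. The members were chosen on the measured values themselves. A unigene was kept if its mean FPKM (fragments scaled to unigene length and library size) over the 9 libraries was at least 2, its summed estimated count was at least 300 and it was not among the 100 with the largest summed count, which left 27324 unigenes. A member then had all 6 values at 25 and 5 psu below all 3 at 15 psu, and control-to-treated ratios of mean FPKM (each + 0.1) of at least 1.5 against both 25 and 5 psu.

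Marine and estuarine bivalves do not hold their body fluid at a fixed concentration: the fluid follows the water, and cells regain their volume by taking up, making or releasing small organic molecules such as free amino acids, together with inorganic ions. Sea water that is too dilute makes cells swell and sea water that is too concentrated makes them shrink, so the 2 treatments press the same cells in opposite directions. Closing the shell valves, which cuts feeding, gas exchange and water flow over the gills, is a behaviour known from bivalves at either extreme. The identifiers in the files are not paired with gene names, so none of the 77 unigenes can be assigned to ion transport, amino acid metabolism or any other function, and no sequence of them is given. All RNA came from the whole body, so fewer cells of a kind and less RNA per cell cannot be told apart.

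Total estimated counts ran from 15897903 to 18427234 per library. Replicate 2 at 15 psu stood apart in 1 respect: 656 unigenes held at least 30 counts with at least 90% of them in that library, against 5 to 16 such unigenes in each of the others. Whether replicates were raised apart is not labelled, so every p-value below covers the spread among these libraries and nothing wider.

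The members stood at a little over 50% of their control level in every treated library. The median member was at 56.7, 54.6 and 57.8% of its own 15 psu mean in the 3 libraries at 25 psu and at 55.1, 56.3 and 55.2% in the 3 libraries at 5 psu, against 95.7, 97.4 and 104.7% in the 3 at 15 psu. Over all 27324 kept unigenes the same medians were 98.2 to 101.0% in the libraries at 25 psu, 91.1 to 100.5% in those at 5 psu and 97.0 to 102.0% in the controls. The FPKM summed over the 77 members was 441.4 ± 8.16 at 25 psu, 432.6 ± 6.90 at 5 psu and 770.1 ± 31.1 at 15 psu (SD, n = 3 each). These levels follow from the rule and are a description. No member was lowest in a control library, and 41 of the 77 were highest in control replicate 3, 23 in control replicate 1 and 13 in control replicate 2.

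**Figure D1:**
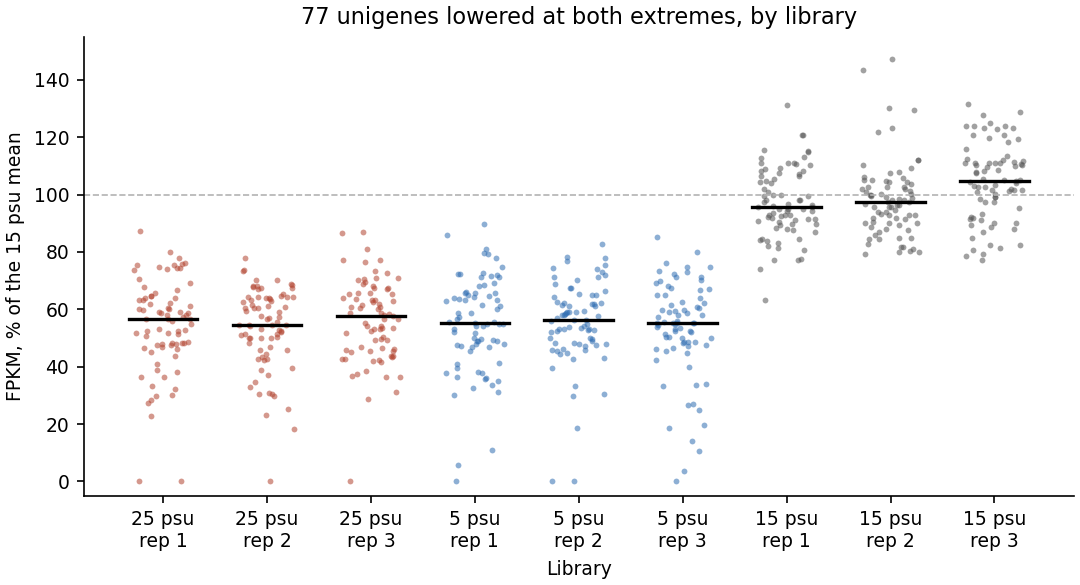
FPKM of each of the 77 members as a percentage of its own 15 psu mean, by library; points are members and black lines are medians. Medians lie at 54.6 to 57.8% in the 6 treated libraries and at 95.7 to 104.7% in the 3 control libraries, and 5 members are at 0 in 1 or 2 treated libraries.

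Most of the differences were small. At 25 psu the members' mean FPKM was 20.6 to 66.1% of the control mean, with a median of 57.4%, and at 5 psu it was 3.69 to 66.3%, with a median of 57.1%. A ratio of at least 2 was reached by 20 members at 25 psu, by 17 at 5 psu and by 7 at both. The smaller of the 2 ratios was under 1.6 for 34 of the 77 and was 2.60 at most. The highest treated library stood at 54.5 to 98.9% of the lowest control library, with a median of 83.5%. The gap between treated and control libraries was therefore narrow for most members.

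The ratio of 1.5 divided a continuous set of values. Of the 27324 kept unigenes, 844 (3.09%) had all 6 treated libraries below all 3 controls; of these, 195 reached the ratio at 25 psu, 202 at 5 psu and 77 at both. The 3 members closest to the limit had smaller ratios of 1.5022, 1.5022 and 1.5023, and the 3 unigenes just outside it had 1.4976, 1.4971 and 1.4971. The members closest to the abundance limit had a mean of 2.001, 2.007 and 2.023 FPKM, and those just under it that met every other condition had 1.93, 1.91 and 1.85 FPKM. By summed count, the members nearest the limit held 311.0, 323 and 325 counts, and those just under it 294, 291.8 and 291.8 counts.

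**Figure D2:**
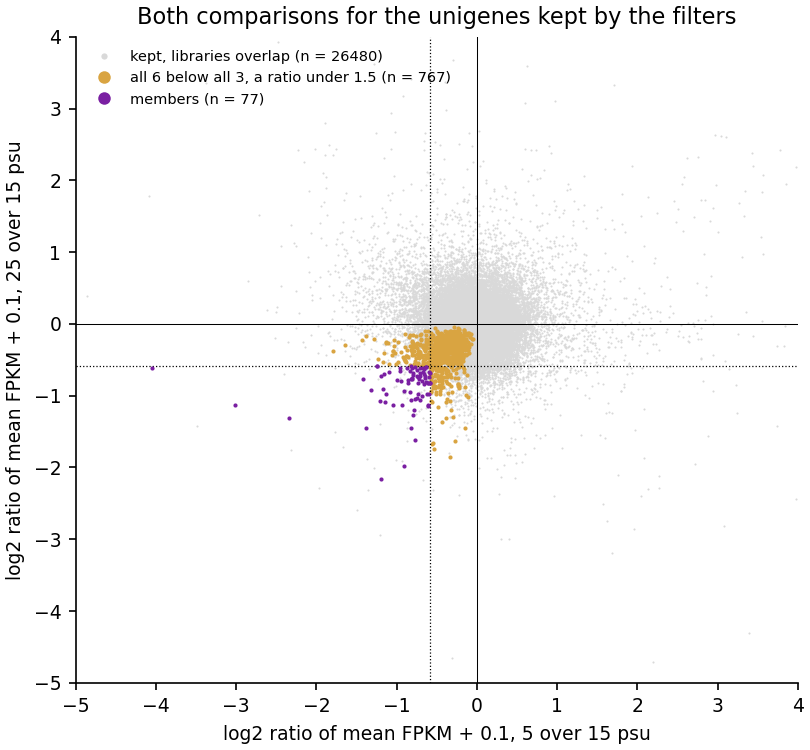
Log2 ratio of mean FPKM + 0.1 at 5 over 15 psu (horizontal) and at 25 over 15 psu (vertical) for the 27324 kept unigenes, of which 48 lie outside the plotted range; dotted lines mark a ratio of 1.5. The 77 members occupy the lower left corner next to 767 unigenes with the same order of libraries but a ratio under 1.5.

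Tests across all unigenes were made on the counts with edgeR's quasi-likelihood test and Benjamini-Hochberg adjustment over 71915 unigenes. All 77 members passed its filter on low counts. At 25 against 15 psu 15 of the 77 fell (adjusted p under 0.05), where 0.679% of all tested unigenes and 1.1% of the kept ones fell, and at 5 against 15 psu 18 of the 77 fell, where 1.6% of all tested and 3.48% of the kept did. The rule used both contrasts, so nothing is read from the members' counts. For the same reason, adjusted p-values of single members against 15 psu, here and below, are a description. Of the 77, 8 fell in both comparisons, where 22 of all tested unigenes (0.0306%) did. Of the other members, 7 fell at 25 psu only, 10 at 5 psu only and 52 in neither. The median log2 fold change of the members was -0.77 at 25 psu (range -2.24 to -0.55, median SE 0.23) and -0.77 at 5 psu (range -4.72 to -0.47, median SE 0.23), while the median of all tested unigenes was -0.01 and -0.00. Both comparisons share the 3 control libraries. With 1 library left out, 5 to 18 members were called at 25 psu, with 5 without replicate 3 at 25 psu, and 6 to 13 at 5 psu, with 6 without control replicate 3. Over all tested unigenes, 134 to 656 were called lower at 25 psu in these fits and 537 to 1237 at 5 psu. Read on counts scaled by TMM to library size (CPM) in place of FPKM, 54 of the 77 met the rule; 6 of the other 23 had treated and control libraries that overlapped.

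Cluster-8005.115277 was the most abundant member and 1 of the 8 that fell in both comparisons. Its FPKM was 96.5, 92.9 and 94.4 at 25 psu, 80.4, 94.7 and 96.9 at 5 psu, and 133.4, 151.3 and 149.2 at 15 psu. Every treated library lay below 97 FPKM and every control library above 133 FPKM. The means were 94.6 ± 1.82 FPKM at 25 psu, 90.7 ± 8.94 FPKM at 5 psu and 144.6 ± 9.77 FPKM at 15 psu (SD, n = 3 each), and it held 17087 counts in all, where the median member held 623.2. Relative to 15 psu the log2 fold change came to -0.58 in 25 psu animals (SE 0.07, adjusted p = 0.00251 by edgeR) and to -0.65 in 5 psu animals (SE 0.07, adjusted p = 0.000891 by edgeR). Of the 21 alternatives, the call at 25 psu was lost only with a per-library length term in edgeR (-0.63, adjusted p = 0.0619). That term, named the fragment length term below, is built on implied unigene length. Both contrasts were used in choosing this member, so these calls are not support.

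The next most abundant members lay between 10.7 and 29.5 FPKM. Among the 10 members with a mean of at least 10 FPKM, 3 fell at 25 psu, 3 fell at 5 psu and only Cluster-8005.115277 in both. The second by abundance was at 24.4, 23.4 and 30.3 FPKM at 25 psu and at 19.2, 20.7 and 28.9 FPKM at 5 psu, against 42.6, 35.5 and 40.0 FPKM at 15 psu. It fell at 5 psu (log2 fold change -0.76, SE 0.16, adjusted p = 0.036 by edgeR), and at 25 psu the value was -0.58 (SE 0.16, adjusted p = 0.107 by edgeR). The member ranked 3 by mean FPKM carries an identifier number 4 below that of Cluster-8005.115277. Its implied length was 119 nucleotides, which is an effective length and not the full length of the unigene. By library this length ran from 112.6 nucleotides in replicate 1 at 25 psu to 129.7 in control replicate 1, which limits its FPKM. This member stood at 23.6, 25.3 and 23.2 FPKM at 25 psu and at 23.7, 24.1 and 18.8 FPKM at 5 psu, against 39.9, 33.2 and 39.1 FPKM at 15 psu. In this pair of members the treated libraries also lay below the controls by similar shares, 64.3% of control at 25 psu and 59.3% at 5 psu for the short one, and 65.4% and 62.7% for the abundant one.

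Among the 8, the member whose smaller ratio was the largest was less abundant and kept a wide gap. It was at 3.28, 2.63 and 2.69 FPKM at 25 psu and at 2.17, 2.65 and 2.99 FPKM at 5 psu, against 6.43, 6.06 and 6.02 FPKM at 15 psu. The treated values were 46.5% of control at 25 psu and 42.2% at 5 psu, and the highest of them was 54.5% of the lowest control, the widest gap of all 77 members. Relative to 15 psu its log2 fold change came to -1.07 in 25 psu animals (SE 0.15, adjusted p = 0.00621 by edgeR) and to -1.22 in 5 psu animals (SE 0.15, adjusted p = 0.00212 by edgeR). It was called in both comparisons in 19 of 21 alternatives. Cluster-8005.115277 and Cluster-8005.115389, described below, were each called in both in 20 of 21, and each of the other 5 of the 8 in 4 to 10 of 21. The rule used both contrasts and the alternatives reuse the same libraries. Such numbers of calls describe dependence on the processing and are not support for a member. Leaving out any 1 library left 3 to 6 members called in both, with 3 without replicate 1 or 3 at 25 psu, replicate 2 at 5 psu or replicate 1 or 3 at 15 psu, 4 without replicate 2 at 25 or 15 psu, and 5 without replicate 3 at 5 psu.

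Some of the largest ratios came from members with libraries at 0 FPKM. The member with the largest smaller ratio was at 0, 13.5 and 13.5 FPKM at 25 psu and at 15.7, 0 and 12.8 FPKM at 5 psu, against 20.9, 26.1 and 27.6 FPKM at 15 psu. It had no counts in replicate 1 at 25 psu and replicate 2 at 5 psu, where a count of 0 allows up to 3 counts, but 58.5 to 70.6 counts in the other treated libraries and 101.8 to 135.0 in the controls. Relative to 15 psu the log2 fold change came to -1.45 in 25 psu animals (SE 1.19, adjusted p = 0.651 by edgeR) and to -1.34 in 5 psu animals (SE 1.18, adjusted p = 0.699 by edgeR). Of the kept unigenes, 1.17% had 0 FPKM in at least 1 of all 9 libraries, controls included, while the rule bars a member from 0 in a control. In all, 5 members (6.49%) had 0 FPKM in at least 1 treated library, and a 0 lowers a group mean, on which the rule is built. Of these 5, 1 fell at 5 psu and none at 25 psu by the edgeR test. The second largest smaller ratio, 2.48, belonged to a member detected in all 9 libraries, at 1.76, 2.13 and 3.74 FPKM at 25 psu and 0.38, 1.92 and 1.28 FPKM at 5 psu, against 4.08, 7.25 and 8.07 FPKM at 15 psu. It fell at 5 psu (log2 fold change -2.41, SE 0.49, adjusted p = 0.0374 by edgeR), with -1.30 at 25 psu (SE 0.46, adjusted p = 0.22 by edgeR).

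**Figure D3:**
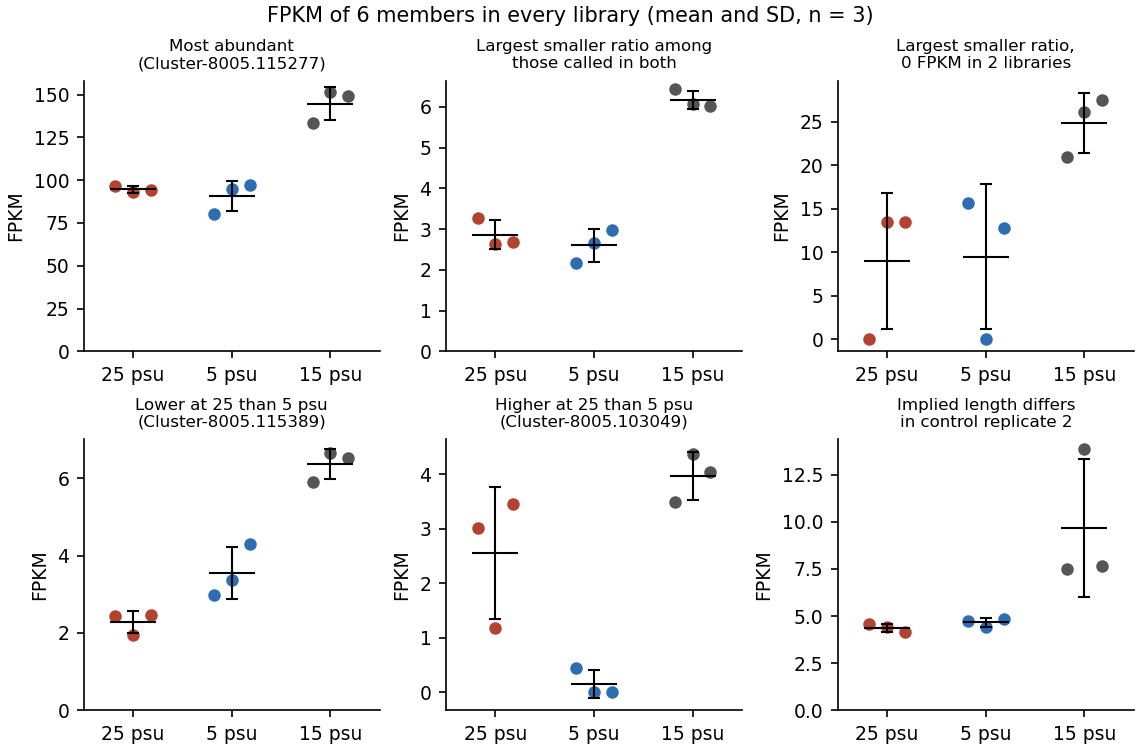
FPKM of 6 members in each library at 25, 5 and 15 psu; points are libraries, horizontal bars are means and error bars are SD (n = 3). In every panel the 6 treated libraries lie below the 3 controls, with means such as 94.6, 90.7 and 144.6 FPKM for the most abundant member; 2 panels hold libraries at 0 FPKM, and in the last panel control replicate 2, at 13.9 FPKM, stands above the other controls.

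For 2 members the deposited FPKM and the counts differed in 1 control library. The first was at 7.48, 13.9 and 7.67 FPKM in control replicates 1, 2 and 3 but had 377, 352 and 374 counts there. The length implied by count and FPKM was 1375 nucleotides in control replicate 2 and 2965 to 2988 in the other 8 libraries. The second was at 8.20, 16.3 and 8.69 FPKM with 392.7, 472.4 and 403.1 counts, and its implied length was 1577 nucleotides in control replicate 2 and 2822 to 2839 elsewhere. In control replicate 2 the first thus had fewer reads than in the other controls at a higher FPKM, while the second had somewhat more reads, 25.3 CPM against 24.0 CPM in both other controls, at a far higher FPKM. Without control replicate 2 the first kept ratios of 1.72 at 25 psu and 1.61 at 5 psu, and the second had 1.47 and 1.37, below the limit. On the counts both were among the 8 that fell in both comparisons, with log2 fold changes of -0.68 and -0.56 at 25 psu (edgeR adjusted p = 0.0167 and 0.0171) and -0.59 and -0.47 at 5 psu (edgeR adjusted p = 0.0261 and 0.0338). An implied length differing by more than 1.5-fold between libraries was found in 2 of 72 members (2.78%) and 167 of 27003 kept unigenes (0.618%) with reads in all 9 libraries.

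High and low salinity were compared with each other in the same fit. The rule did not use this contrast directly, but it required both groups to lie below 15 psu with both ratios at least 1.5. A unigene that differs strongly between 25 and 5 psu can fail 1 of these ratios. The choice may thus lower the members' share of calls, and nothing is read from that share. The edgeR test called 5 of the 77 members (6.49%) at an adjusted p under 0.05, with 2 higher and 3 lower in 25 psu than in 5 psu animals. Among all tested unigenes 11.1% were called (6.48% higher and 4.63% lower), and among the unigenes kept by the same filters on abundance 19.8% (12.5% higher and 7.22% lower). All 5 had a mean under 5 FPKM, the class that held 49 of the 77 members and in which 15.6% of kept unigenes were called. The members' median log2 difference was 0.00 (quartiles -0.22 and 0.16), against -0.02 over all tested unigenes, and 39 of the 77 had the lower mean FPKM at 25 psu. By FPKM, 9 members had all 3 libraries at 25 psu below all 3 at 5 psu, and 3 members had the opposite order; over the kept unigenes 16.7% were lower at 25 psu and 23.1% lower at 5 psu in that way. No test was made of whether these shares differ. The 5 became 3 without replicate 1 at 25 psu, replicate 3 at 5 psu or control replicate 3, 1 without replicate 2 at 25 psu and 2 without each of the other libraries. With edgeR on only the 6 libraries compared it was 0, with 6 at an unadjusted p under 0.05, and DESeq2 on all 9 called 4. Over all tested unigenes, the fit of 6 libraries called 3503 higher and 2284 lower at 25 psu, and DESeq2 4918 and 3926. Leaving out 1 library gave 2969 to 4498 higher and 1949 to 2952 lower over all tested unigenes.

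For the other 72 members no difference between high and low salinity was detected, which does not show that the levels were equal. Their log2 differences ran from -1.16 to 2.06. The 95% interval lay within 1 log2 unit on either side of 0 for 55 of the 77 members, and its median half-width was 0.53. For Cluster-8005.115277 the difference was 0.07, with a 95% interval of -0.09 to 0.22.

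Cluster-8005.115389 had the smallest p among the members that were lower at 25 than at 5 psu. It was at 2.43, 1.95 and 2.46 FPKM at 25 psu and at 2.98, 3.38 and 4.29 FPKM at 5 psu, against 5.92, 6.66 and 6.54 FPKM at 15 psu. The 3 groups did not overlap, so this unigene stood lowest at high salinity, in between at low salinity and highest in the control. The log2 difference of 25 from 5 psu was -0.62 (SE 0.13, adjusted p = 0.0158 by edgeR), and relative to the control it fell by 1.44 on the log2 scale at 25 psu (SE 0.13, adjusted p = 0.00066 by edgeR) and by 0.82 at 5 psu (SE 0.13, adjusted p = 0.00786 by edgeR). Over 21 alternatives the adjusted p of the 25 against 5 psu difference ran from 0.00245 to 0.212 and passed in 15. It was 0.0632 without replicate 2 at 25 psu. The member with the next identifier number, at a mean of 3.05 FPKM, had 2.66, 2.30 and 1.92 FPKM at 25 psu and 2.47, 2.24 and 2.35 FPKM at 5 psu, against 4.32, 4.57 and 4.58 FPKM at 15 psu, with overlap between high and low salinity.

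Cluster-8005.103049 had the smallest p among the members that were higher at 25 than at 5 psu. It was at 3.02, 1.18 and 3.46 FPKM at 25 psu and at 0.44, 0 and 0 FPKM at 5 psu, against 3.50, 4.38 and 4.04 FPKM at 15 psu. At low salinity it was near absent, with 34.7 counts summed over the 3 libraries, while at high salinity the best library lay just under the lowest control. The log2 difference of 25 from 5 psu was 4.12 (SE 0.99, adjusted p = 0.035 by edgeR), a fitted value that rests on few counts at 5 psu. It passed in 8 of 21 alternatives, and the adjusted p ran from 0.00289 to 0.214. The log2 difference itself ran from 1.59, with limma on log2(FPKM + 1), to 10.7, without replicate 1 at 5 psu, where only libraries at 0 FPKM were left in that group. It was lost without replicate 1 (0.0849) or 3 (0.0901) at 25 psu, without replicate 2 (0.0849) or 3 (0.0671) at 5 psu, and without control replicate 1 (0.0571), 2 (0.0615) or 3 (0.0605). Against the control it fell at 5 psu (log2 fold change -4.72, SE 0.99, adjusted p = 0.0499 by edgeR), and at 25 psu the value was -0.60 (SE 0.75, adjusted p = 0.794 by edgeR).

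**Figure D4:**
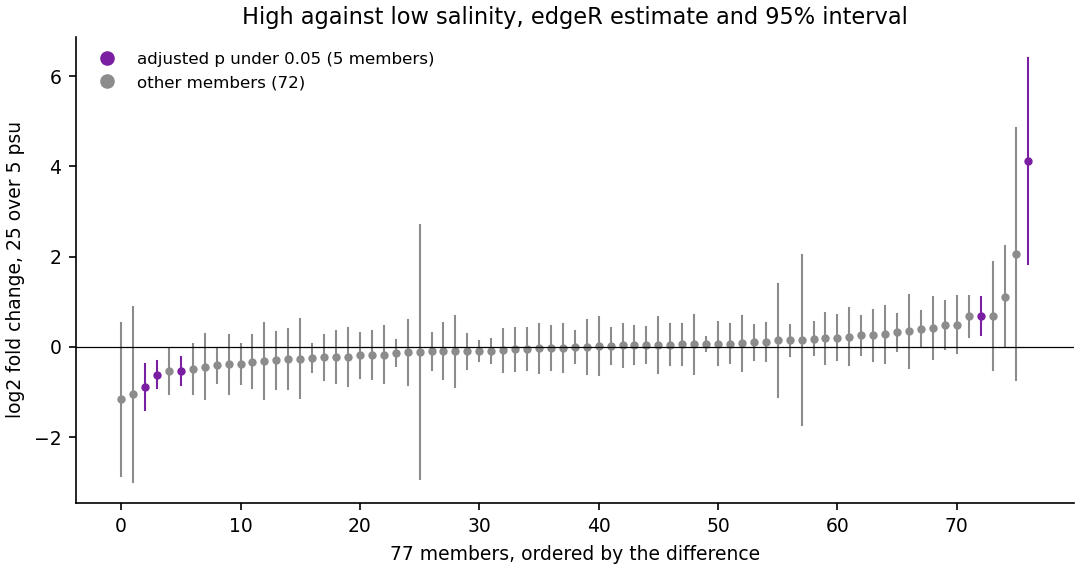
Log2 fold change of 25 over 5 psu for the 77 members, ordered by size; points are edgeR estimates and lines 95% intervals. The 5 members past an adjusted p of 0.05, 2 higher and 3 lower at 25 psu, are in purple; 68 of the other 72 intervals span 0.

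The remaining members called between high and low salinity were 2 lower and 1 higher at 25 psu. Of those lower, the first was at 1.36, 0.95 and 1.48 FPKM at 25 psu and at 2.39, 2.37 and 2.28 FPKM at 5 psu, against 3.72, 3.45 and 5.05 FPKM at 15 psu (25 over 5 psu: log2 difference -0.88, SE 0.23, adjusted p = 0.0349 by edgeR). The other was at 2.72, 1.96 and 2.44 FPKM at 25 psu and at 3.11, 3.77 and 3.44 FPKM at 5 psu, against 5.03, 5.71 and 5.16 FPKM at 15 psu (-0.53, SE 0.14, adjusted p = 0.0353 by edgeR). The member higher at 25 psu was at 4.02, 4.55 and 5.48 FPKM at 25 psu and at 2.59, 3.37 and 2.83 FPKM at 5 psu, against 5.82, 6.72 and 8.74 FPKM at 15 psu (0.68, SE 0.19, adjusted p = 0.0431 by edgeR). None of these 3 overlapped between high and low salinity, but they were picked by their p in that contrast, so nothing is read from it. Over the kept unigenes, 16.7% had all 3 libraries at 25 psu below all 3 at 5 psu, and 23.1% had them above.

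Since the rule used all 9 libraries, each was also left out in turn, the rule applied to the other 8 (with the count minimum scaled to 8 libraries), and the left-out library read as a value that the choice had not used. The libraries it is set against were still chosen to be high or low, so it falls on the rule's side partly by that choice, and nothing is read from the shares below. With a library at 25 psu left out, 87 to 93 unigenes met the rule and the left-out library lay below all 3 controls for 84.9 to 92.0% of them. With a library at 5 psu left out, 97 to 119 met it and the left-out library lay below all controls for 73.1 to 90.7%. With a control left out, 99 to 151 met it and the left-out control lay above all 6 treated libraries for 60.3 to 71.9%. Over all unigenes kept on the other 8 libraries, the left-out library lay on the same side for 30.8 to 33.8% at 25 psu. That share was 34.2 to 45.9% at 5 psu and 10.3 to 13.2% for the controls. Those unigenes are unselected, so their shares are not what the choice alone would give. The left-out values were closer to the control than those used in the choice. At 25 psu the left-out library had a median of 61.5 to 63.2% of control, against 55.2 to 57.1% in the libraries used, and at 5 psu 62.0 to 70.2%, against 57.7 to 57.8%. Set against a left-out control, the treated libraries had a median of 65.6 to 71.4%, against 55.6 to 56.7% of the controls used. The left-out library shares its group and its treated or control counterparts with the libraries used.

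**Figure D5:**
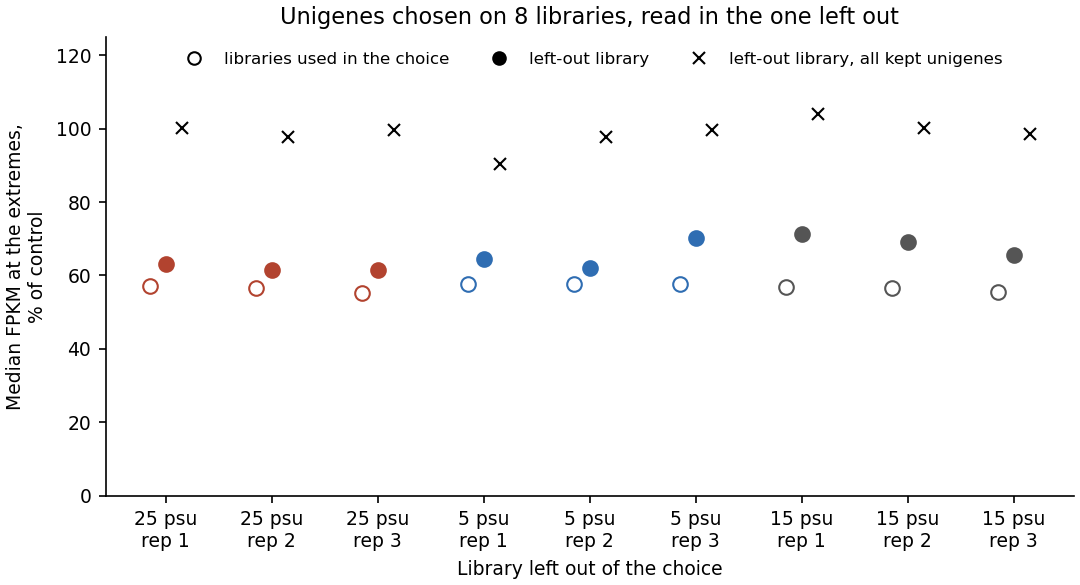
Median FPKM at the extremes as a percentage of control for unigenes chosen on 8 libraries, by the library left out; open circles are the libraries used in the choice, filled circles the left-out library and crosses the left-out library over all kept unigenes. Filled circles lie at 61.5 to 71.4%, between the open circles at 55.2 to 57.8% and the crosses at 90.3 to 103.9%; the crosses cover unselected unigenes and are not the level that the choice alone would give.

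Membership depended on single libraries for most of the 77. Both ratios stayed at or above 1.5 whichever library was left out for 30 members, while 47 lost a ratio without at least 1 library. Leaving out control replicate 3 took the ratio from 21 members, and leaving out any other library from 9 to 11. Without control replicate 2, the library that stood apart, 68 members kept both ratios and 9 lost one. These numbers cover the ratios alone. With the abundance filters also reapplied, 62 of the 77 met the rule without control replicate 1 or 2 and 51 without control replicate 3. Without 1 treated library, 66 to 68 of the 77 met it.

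The members were somewhat shorter and scarcer than the unigenes they were drawn from. Their implied effective length had a median of 1094 nucleotides (quartiles 739.6 and 1562), against 1372 (quartiles 791.9 and 2387) for the 27324 kept unigenes. Mean abundance was 2 to 5 FPKM for 63.6% of members and 44.9% of kept unigenes. It was 10 to 100 FPKM for 11.7% of members and 25.9% of kept unigenes, and at least 100 FPKM for 1.30% and 2.92%. The summed count had a median of 623.2, against 1196 for the kept unigenes. The coefficient of variation within a group had a median of 19.5% at 25 psu, 19.5% at 5 psu and 12.7% at 15 psu, against 11.4%, 16.5% and 11.8% over the kept unigenes. Counting error is larger at lower counts, and a wide spread among controls makes a unigene less likely to meet the rule. Whether either bears on these spreads was not tested.

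Shared reads could tie members to each other or to unigenes outside the list. Estimated counts were not whole in at least 1 library for 61 of the 77 members (79.2%) and 70.4% of kept unigenes, and in all 9 libraries for 38 members (49.4%) and 53.8%, as RSEM gives when it divides reads among unigenes. By identifier, 75 of the 77 members (97.4%) belong to 1 assembly cluster, which also holds 99.8% of the kept unigenes, and the other 2 members each to a cluster of their own. Within that cluster 3 pairs of members have identifier numbers at most 5 apart. The labels do not state what the numbering stands for.

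The libraries also differed in the effective unigene length that count and FPKM imply. The offset was -6.33 to -4.43 nucleotides at 25 psu, -4.05 to 6.27 at 5 psu and -2.51 to 11.4 at 15 psu. It is in implied unigene length and is not itself a fragment length, though the term built on it is named the fragment length term. With this offset as a term in the edgeR fit, 1 member was called at 25 against 15 psu in place of 15, 7 at 5 against 15 psu in place of 18 and 0 at 25 against 5 psu in place of 5. The loss was not particular to the members. Over all tested unigenes, the fit with the term called 25 lower than the control at 25 psu, where the main fit called 488. For 5 psu these numbers were 702 and 1148. Between 25 and 5 psu the term left 2358 higher and 1300 lower calls, where the main fit had 4663 and 3327. The members' median log2 fold change with the term was -0.83 at 25 psu and -0.77 at 5 psu. With this term 39 members had an unadjusted p under 0.05 at 25 against 15 psu and 5 at 25 against 5 psu, where DESeq2 without the term called 4. The offset differs between the groups, and its part in the calls was not tested further.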

How the data were processed

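RNA sequencing of whole juveniles gave 9 libraries, 3 at each of 25, 5 and 15 psu, grouped by the labels' source names. Per the file headers, the authors deposited for each unigene an estimated count, not always whole, and an FPKM value. The submitters' processing notes list the tools RSEM and Bowtie2 with neither version nor role. Trizol extraction and a NEBNext Ultra RNA kit are given in the labels' protocols; strand is not mentioned, so antisense transcripts cannot be told apart. The assembler is not named.

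The rule for the 77 members was applied to the FPKM as deposited. Counts were rounded to whole numbers, filtered with edgeR's filterByExpr (count minimum 10; 71915 of 246672 unigenes, 97.7 to 98.6% of counts), scaled by TMM and tested in 1 model of the 3 groups with edgeR 4.0.16 (R 4.3.3; glmQLFit, robust), with Benjamini-Hochberg adjustment at 0.05. SE is the log2 fold change over the square root of F, and intervals are 95% t intervals. The script was tested on simulated data. Implied length is the count over FPKM and library total. It is an effective length, not the full length of a unigene. The offset of a library is its median difference in implied length over the 946 unigenes averaging 2000 or more counts. The fragment length term is this offset. Depth was 15897903 to 18427234 counts per library; floors for a count of 0 cover counting error only.

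Members printed by identifier are the most abundant and those with the smallest p in either direction between 25 and 5 psu; that with the largest smaller ratio is given without one, as are members described for a value noticed later (the largest smaller ratio among the 8 called in both, members with 0 FPKM or an uneven implied length, the next in abundance, in ratio or in identifier number and the other members called). The members and rules were chosen with earlier results of these data known. Same-numbered libraries correlated at -0.0169 to 0.106 in their deviations from group means, over 0.1 in 1 of 9 pairs, so numbers were not taken as pairs. Alternatives were other scalings and filters, DESeq2 (1.42.0), limma-voom and limma (3.58.1) on log2(FPKM + 1) and log2(FPKM + 0.1), a replicate block, a fragment length term, fits of the compared groups only and leaving out each library. No alternative was added later.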

Additional observations from a re-analysis of the deposited data

How the results depend on the processing

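The median log2 fold change of the 77 members against the control was between -0.83 and -0.65 for 25 psu and between -0.86 and -0.68 for 5 psu over the 21 alternatives. No member was called higher than the control in any. The rule chose the members as lower than the control and the alternatives reuse the same libraries, so this direction is not support. The number of unigenes meeting the rule, 77, was 38 with a pseudocount of 1, 7 with a minimum ratio of 2, 427 with a looser minimum ratio, 28 with a minimum of 5 FPKM, 129 with no FPKM minimum and 275 with no count minimum, which follows from fewer or more unigenes being admitted; it was 55 on CPM, and 87 to 151 with 1 library left out (151 without control replicate 1, 119 without replicate 3 at 5 psu). The 5 members called between 25 and 5 psu became 2 without a filter on low counts, with limma-voom and with limma on log2(FPKM + 1) or log2(FPKM + 0.1), 1 with limma on log2(FPKM + 1) unfiltered, 0 with edgeR on only the 6 libraries compared (6 at an unadjusted p under 0.05), 0 with the fragment length term in edgeR (5 at an unadjusted p under 0.05; DESeq2 without it called 4) and 1 to 3 with 1 library left out. The 18 called at 5 against 15 psu became 29 with at least 30 counts in 3 libraries, 28 with DESeq2's Wald test, 6 with unfiltered limma, 6 with only the 6 libraries compared, 7 with the fragment length term and 6 to 13 with 1 library left out (6 without control replicate 3, 7 without control replicate 1 or replicate 2 at 5 psu, 8 without control replicate 2, 10 and 11 without replicates 2 and 3 at 25 psu). Over all tested unigenes, 1148 were called lower at 5 psu in the main fit. That number was 1461 with at least 30 counts in 3 libraries and 1719 with DESeq2's Wald test. It was 576 with unfiltered limma, 552 with only the 6 libraries compared and 702 with the fragment length term. Leaving out 1 library gave 537 to 1237. The 15 called at 25 against 15 psu became 25 with DESeq2's Wald test, 23 with limma on log2(FPKM + 1), 4 with that unfiltered, 1 with the fragment length term and 5 to 18 with 1 library left out (5 without replicate 3 at 25 psu, 6 without replicate 1 at 25 psu or replicate 1 or 3 at 15 psu, 8 without replicate 2 at either). Over all tested unigenes, 488 were called lower at 25 psu in the main fit. That number was 877 with DESeq2's Wald test, 547 with limma on log2(FPKM + 1) and 170 with that unfiltered. It was 25 with the fragment length term and 134 to 656 with 1 library left out. The cause of these shifts was not tested; in the fits without a library or group fewer samples remain. With a replicate block the counts of members were 3 between 25 and 5 psu, 12 at 5 psu and 13 at 25 psu. Over all tested unigenes 4136 were then called higher and 2845 lower at 25 than at 5 psu. Against the control 869 were called lower at 5 psu and 314 at 25 psu. The replicate numbers are not known to pair the libraries. In the contrasts rerun per member, the sign held in all 21 alternatives: Cluster-8005.115277 and the member with the largest smaller ratio at 25 and at 5 against 15 psu, Cluster-8005.115389 and Cluster-8005.103049 at 25 against 5 psu. Against 15 psu that sign was set by the rule, and nothing is read from it. At 3 libraries a group, some members gave wide intervals, among them members with libraries at 0 FPKM and some near 300 counts. A call missed there is not evidence of an equal level.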

Other observations

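The filters of the rule set aside unigenes with the same order of libraries. Of those that met both ratios and had all 6 treated libraries below all 3 controls, 198 failed the minimum of 300 summed counts with a mean of at least 2 FPKM, 52 failed the minimum of 2 FPKM with at least 300 counts, and none was among the 100 with the largest summed counts. The most abundant of the 77 members held 17087 counts, and the FPKM summed over the other 76 was 346.8 ± 8.85 at 25 psu, 341.9 ± 2.36 at 5 psu and 625.5 ± 26.5 at 15 psu (SD, n = 3 each).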
